A study of Mus musculus with 8 samples.

Results

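The genes described here encode subunits and assembly factors of respiratory complex I, the NADH dehydrogenase of the inner mitochondrial membrane. Ndufa4 and Ndufa4l2 are included by name only. The cells were sorted from mouse kidneys 3 days after ischemia and from normal kidneys. The genes were taken as every symbol starting with Nduf among probe sets listed with a single gene symbol. This gave 44 genes of the 18193 measured on the arrays, all called complex I genes below. Of these, 9 were Ndufs or Ndufv genes and 35 were Ndufa, Ndufb, Ndufc or Ndufaf genes. Where a gene had several probe sets, the one brightest on average was used, and each value is log2 of the array intensity plus 16 after quantile normalization, so that 1 unit is a doubling of that quantity.

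The Ischemic group held 5 arrays and the Normal group 3 arrays. All mice were labelled as male, 6 months old and C57BL/6 with the FSP1-eGFP transgene, in which the promoter of FSP1 (S100a4) drives a green fluorescent protein. In Ischemic mice the artery and vein of the left kidney had been clamped for 45 min and the cells were taken on day 3. The labels call the Normal kidneys both sham and control, and the treated mice received buprenorphine for pain after surgery. GFP-positive cells were sorted from digested kidneys and their RNA was amplified before it was put on Affymetrix arrays. The labels describe the sorted cells as fibroblasts, but S100a4 is also active in macrophages and other cells, and the sort gene itself was at 11.97 ± 0.27 in Ischemic and 11.61 ± 0.32 in Normal arrays (SD, n = 5 and 3). Nothing in the labels ties an Ischemic array to a Normal array.

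Marker genes of several cell types were measured on the same arrays and are given first. Among fibroblast markers, 9 of 14 lay below the median level of all genes, Col3a1, Dcn, Lum and Pdgfra among them. The others, Col1a1, Col1a2, Pdgfrb, Postn and Thy1, were at or above it. Fibroblast markers were higher in Ischemic arrays in 11 of 14 (median difference 0.42), with summed intensities of 417 to 1756 in Ischemic and 495 to 1075 in Normal arrays. All 18 macrophage markers measured were above the median level and higher in Ischemic arrays, with a median difference of 0.68, and for 5 of them the groups were apart; 2 of the 18 were lower after median centring and 4 after centring on ribosomal protein genes. Their summed intensities were 25382 to 40640 in Ischemic and 21054 to 26961 in Normal arrays. All 18 proximal tubule markers were lower in Ischemic arrays, with summed intensities of 3781 to 7193 against 19576 to 45467 in Normal arrays, and none was below the median level. Proximal tubule cells are rich in mitochondria. All 14 distal nephron and collecting duct markers were also lower, with sums of 728 to 1516 in Ischemic and 6000 to 6928 in Normal arrays; Aqp2, Atp6v1b1, Foxi1, Scnn1b and Scnn1g were below the median level. Of 10 endothelial markers, 9 were lower, with sums of 933 to 9880 in Ischemic and 2682 to 8968 in Normal arrays that overlapped. The sums of 6 T and NK cell markers were 45.9 to 1112 in Ischemic and 86.0 to 951 in Normal arrays, and those of 5 B cell markers 81.7 to 1717 in Ischemic and 99.5 to 465 in Normal arrays. The B cell sums were highest on Ischemic 1 (1717), Ischemic 2 (737) and Normal 1 (465), and 81.7 to 130 on the other 5 arrays. The part of these cell types in the complex I differences was not tested, and in sorted bulk RNA fewer cells of a type and less RNA per cell cannot be told apart.

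Although all mice were labelled male, Xist, the RNA that coats the inactive X chromosome in females, was high on 3 arrays, at 11.21 in Ischemic 1, 9.39 in Ischemic 2 and 11.01 in Normal 1, and between 4.49 and 4.96 on the other 5. The Y-linked gene Eif2s3y was at 5.84 in both Ischemic 1 and Normal 1 and between 7.68 and 8.87 on the other 6 arrays, Ischemic 2 included. Ischemic 1 also stood apart over all genes, its correlations with the rest having a median of 0.753, against medians of 0.850 to 0.913 for the remaining arrays. Ischemic 1, Ischemic 2 and Normal 1 are also the arrays highest in B cell markers. The values without these 3 arrays are given after those of all 8.

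Complex I takes electrons from NADH and passes them through a flavin and a chain of iron-sulfur clusters to ubiquinone, and it couples this to the pumping of protons across the inner membrane. Its catalytic core is shared with bacteria: the part in the matrix is encoded by nuclear Ndufs and Ndufv genes and the proton-pumping part by the mitochondrial genome. In mammals the core is wrapped by many supernumerary subunits, most of them Ndufa, Ndufb and Ndufc proteins, which are needed for assembly or stability, while Ndufaf proteins help to build the enzyme and are not part of it. Renal tubule cells, which depend on oxidative phosphorylation, are a classical site of high complex I content.

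Most complex I genes were lower in Ischemic than in Normal cells by a modest amount, and none passed the test on its own. Of the 44 genes, 41 (93.2%) had a lower mean in Ischemic arrays, while 45.2% of all genes did. The median difference, Ischemic minus Normal, was -0.57 over the 44 genes and 0.04 over all 18193. In limma, 0 of the 44 genes had an adjusted p below 0.05, as did 0% of all genes, and the adjusted p of the members ranged from 0.299 to 0.993. At an unadjusted limma p below 0.05, 13 of the 44 were lower, against 5.02% of all genes, and 0 were higher, against 2.11% of all genes. Every Ischemic array lay below every Normal array for 8 of the 44 genes (18.2%), an order seen in 3.44% of all genes, and above it for 0, against 1.89% of all genes. These 8 were Ndufa1, Ndufa5, Ndufaf7, Ndufb2, Ndufb3, Ndufb9, Ndufb11 and Ndufc1. Complex I genes are bright: 35 of the 44 were among the brightest 4548 genes, of which 48.3% were lower, 5.98% were lower at the unadjusted threshold and 4.35% had the groups apart in that direction. The genes share arrays and cells, so their counts are not counts of independent observations.

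**Figure D1:**
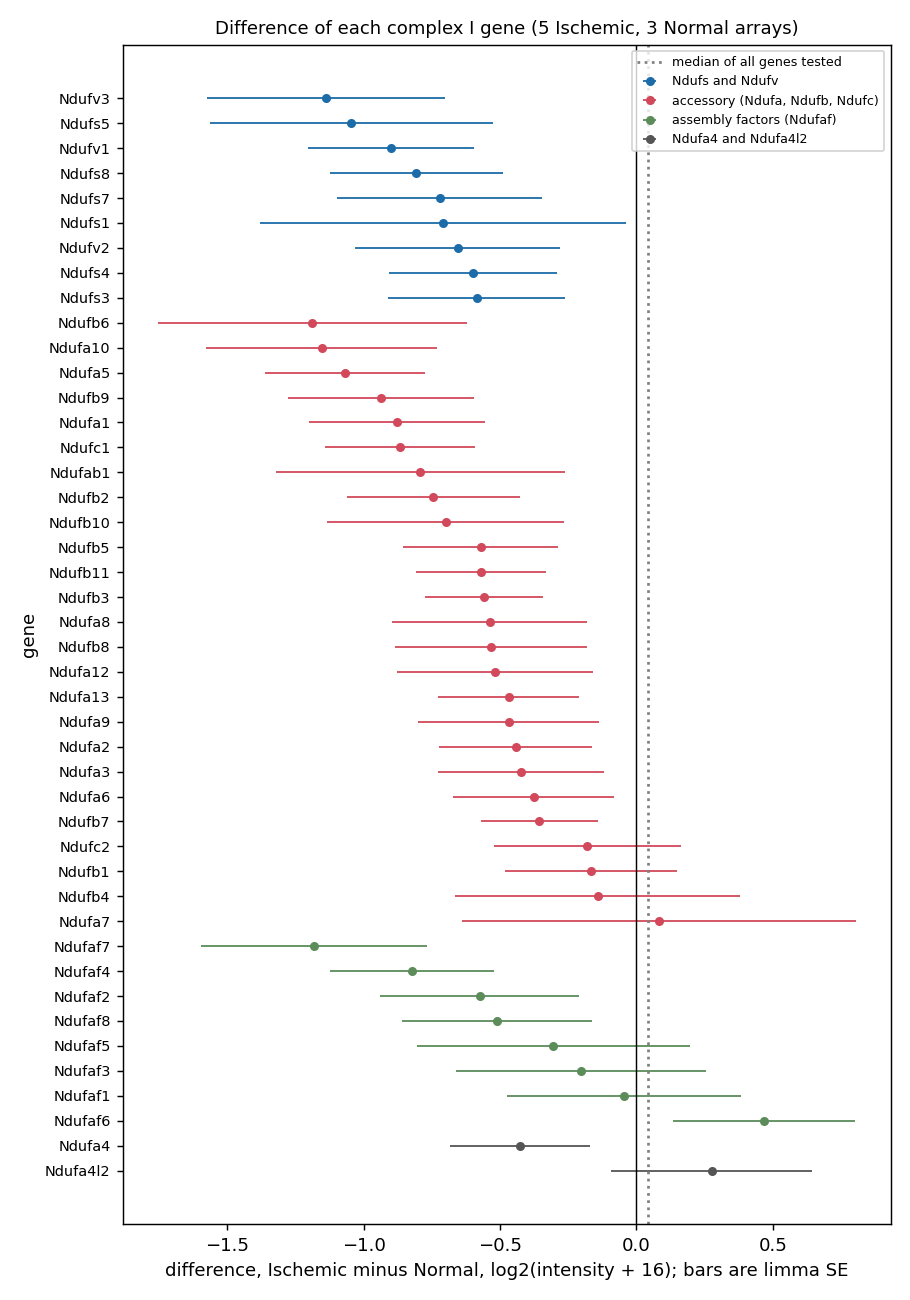
Difference of each of the 44 complex I genes, Ischemic minus Normal, in log2(intensity + 16). Bars show the limma SE, not a confidence interval. Colours mark Ndufs and Ndufv genes, accessory genes (Ndufa, Ndufb, Ndufc), assembly factors (Ndufaf), and Ndufa4 with Ndufa4l2. Of the 44 points, 41 lie left of 0, and the 3 to the right are Ndufaf6, Ndufa4l2 and Ndufa7.

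The medians of all classes of complex I genes were below 0. The median was -0.72 over the 9 Ndufs and Ndufv genes, all of them lower, with a range of -1.14 to -0.59. Over the 35 Ndufa, Ndufb, Ndufc and Ndufaf genes the median was -0.52 and 32 were lower. By position in the enzyme, 13 of 14 genes of the matrix arm were lower with a median of -0.63, and all 19 genes of the membrane arm were lower with a median of -0.57. Without Normal 1 the medians were -0.35 over the matrix arm, with 14 of 14 lower, and -0.30 over the membrane arm, with 16 of 19 lower. The differences between these classes were not tested. No gene of any class passed the adjusted threshold.

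The core subunits measured, Ndufs1, Ndufs3, Ndufs7, Ndufs8, Ndufv1 and Ndufv2, hold the flavin and the iron-sulfur clusters or lie at the ubiquinone site. All 6 were lower, with a mean over the 6 genes of 8.07, 8.99, 9.02, 8.69 and 8.99 in Ischemic arrays 1 to 5, against 9.90, 9.29 and 9.25 in Normal arrays 1 to 3. All 5 Ischemic means were below the 3 Normal means, at 8.75 ± 0.41 in Ischemic and 9.48 ± 0.37 in Normal arrays (SD, n = 5 and 3).

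Ndufv1 and Ndufv2 are the entry point for electrons: Ndufv1 binds NADH and the flavin, and Ndufv2 carries an iron-sulfur cluster beside it. Ndufv1 was at 8.57, 9.45, 8.94, 8.77 and 8.67 in Ischemic arrays 1 to 5, against 10.19, 9.93 and 9.22 in Normal arrays 1 to 3. Only Ischemic 2 lay above the lowest Normal array, and the difference of -0.90 ± 0.30 (SE) had a limma adjusted p of 0.483 and an exact permutation p of 0.0714. The exact test is two-sided over the 56 ways to split 8 arrays into 5 and 3, and the smallest p it can give is 0.0357. Ndufv2 was at 7.88, 9.12, 9.04, 8.80 and 8.60 in Ischemic arrays and 10.08, 8.97 and 8.99 in Normal arrays. Its groups overlapped, since Ischemic 2 and 3 were above 2 of the 3 Normal arrays, and the limma adjusted p was 0.848.

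Ndufs1, the largest subunit, carries several iron-sulfur clusters of the same chain. It was the least even of the core genes, at 6.53, 7.38, 8.20, 7.69 and 9.84 in Ischemic arrays and 8.02, 8.71 and 9.18 in Normal arrays. Ischemic 5 was the highest of all 8 arrays and Ischemic 1 the lowest. The difference was -0.71 with a 95% confidence interval of -2.24 to 0.82 and a limma adjusted p of 0.947.

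Ndufs7 and Ndufs8 carry the clusters that end the chain at ubiquinone, and Ndufs3 is a structural core subunit beside them. Ndufs8 was at 8.11, 8.69, 9.11, 8.51 and 8.52 in Ischemic arrays and 9.99, 9.31 and 8.89 in Normal arrays, a difference of -0.81 ± 0.32 (SE, limma adjusted p = 0.623). Only Ischemic 3 reached above Normal 3, and all 6 probe sets of Ndufs8 differed in the same direction, by -0.88 to -0.64. Ndufs7 was at 8.28, 9.42, 9.15, 8.44 and 8.82 in Ischemic arrays and 10.28, 9.01 and 9.34 in Normal arrays, and its groups overlapped (-0.72 ± 0.38, SE, limma adjusted p = 0.794). Ndufs3 was at 9.04, 9.89, 9.66, 9.94 and 9.50 in Ischemic arrays and 10.86, 9.84 and 9.87 in Normal arrays. For Ndufs3 only Normal 1 stood clear of the Ischemic arrays, and the difference was -0.59 ± 0.32 (SE, limma adjusted p = 0.835).

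The other 3 genes with these names, Ndufs4, Ndufs5 and Ndufv3, encode supernumerary subunits. Ndufs4, whose loss causes a complex I deficiency in mice and humans, was at 8.51, 8.68, 9.59, 9.40 and 9.27 in Ischemic arrays and 10.00, 9.60 and 9.46 in Normal arrays. Only Ischemic 3 was above the lowest Normal array (-0.60 ± 0.31, SE, limma adjusted p = 0.791). Ndufs5 and Ndufv3 differed by -1.05 and -1.14. A brighter probe set listed with both Ndufs5 and Ndufs5-ps, not counted as a member, differed by -0.71.

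The supernumerary subunits form the shell of the enzyme. Their mean over 28 genes was 8.75, 9.05, 9.47, 9.06 and 9.23 in Ischemic arrays and 10.23, 9.58 and 9.39 in Normal arrays, or 9.11 ± 0.26 in Ischemic and 9.73 ± 0.44 in Normal arrays (SD, n = 5 and 3). Of the 28, 27 were lower and the median difference was -0.56. The medians were -0.49 over 12 Ndufa genes (Ndufab1 included, and without Ndufa4 and Ndufa4l2), -0.57 over 11 Ndufb genes and -0.52 over 2 Ndufc genes.

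**Figure D2:**
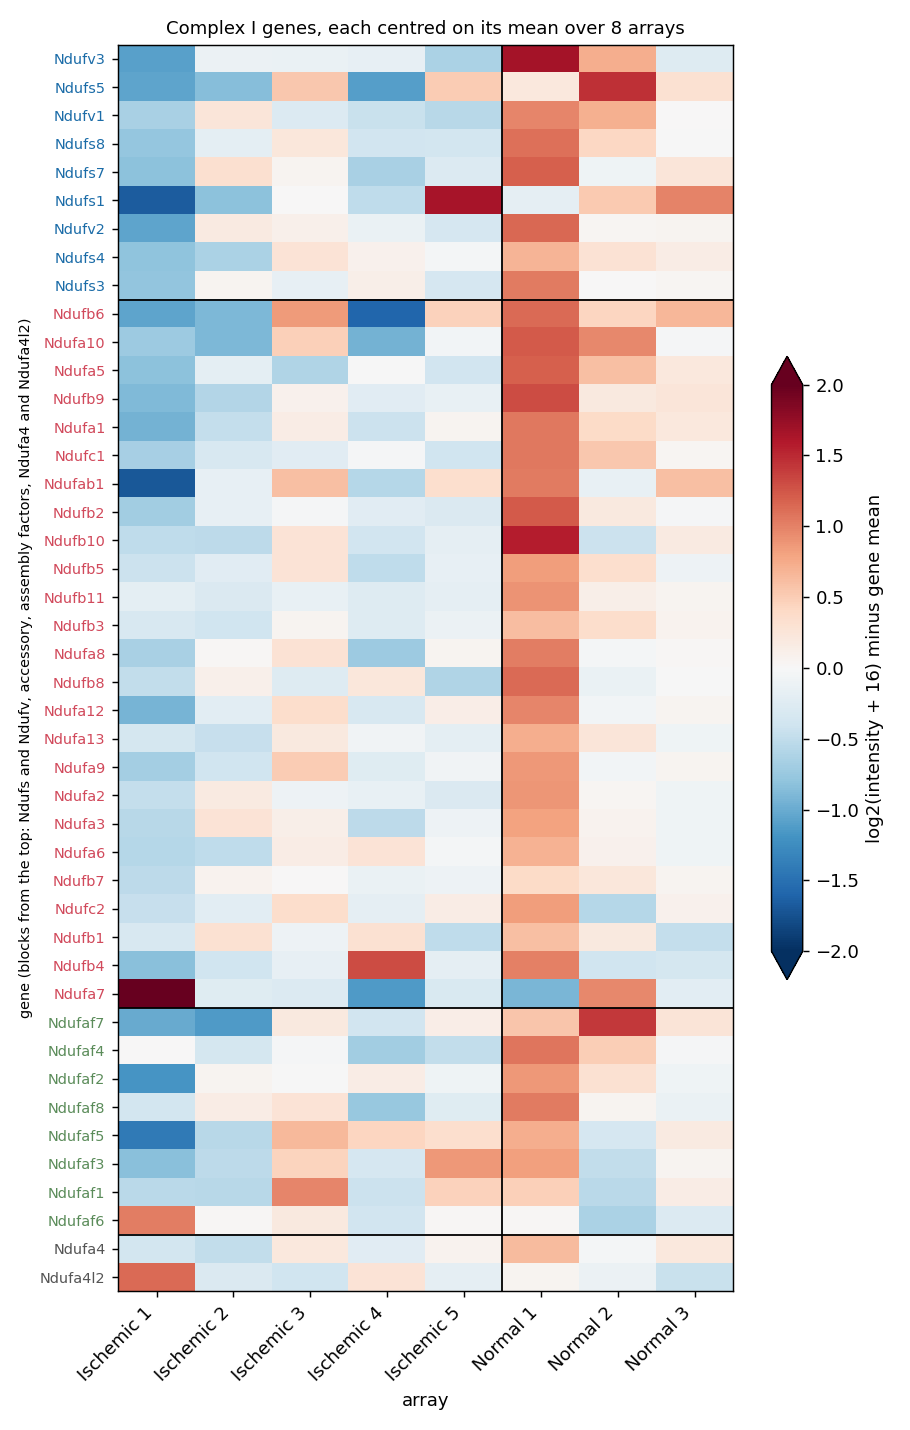
Level of each complex I gene on each array relative to the mean of that gene over the 8 arrays, in log2(intensity + 16). Ischemic arrays are left of Normal arrays. Genes are grouped as Ndufs and Ndufv, accessory, assembly factors, and Ndufa4 with Ndufa4l2. Normal 1 is the highest of the 8 arrays in 35 of the 44 genes and Ischemic 1 the lowest in 24.

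Ndufa5, a subunit of the matrix arm, had the smallest adjusted p of the 44 genes. It was at 10.09, 10.72, 10.31, 10.90 and 10.53 in Ischemic arrays and 12.10, 11.52 and 11.12 in Normal arrays. All Ischemic arrays were below all Normal arrays, and the difference was -1.07 ± 0.29 (SE, limma adjusted p = 0.299, exact permutation p = 0.0357) with a 95% confidence interval of -1.74 to -0.40.

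Ndufc1 and Ndufb9 belong to the membrane arm, and Ndufa1 is a small membrane subunit. Ndufc1 was at 10.14, 10.49, 10.57, 10.79 and 10.40 in Ischemic arrays and 11.85, 11.34 and 10.84 in Normal arrays, a difference of -0.87 ± 0.27 (SE, limma adjusted p = 0.412). Ndufb9 was at 9.57, 9.86, 10.54, 10.21 and 10.31 in Ischemic arrays and 11.76, 10.64 and 10.70 in Normal arrays (-0.94 ± 0.34, SE, limma adjusted p = 0.550). In both genes the groups did not overlap, by a narrow margin between the highest Ischemic and the lowest Normal array. Ndufa1, which is encoded on the X chromosome, was at 9.28, 9.74, 10.37, 9.79 and 10.27 in Ischemic arrays and 11.28, 10.60 and 10.43 in Normal arrays (-0.88 ± 0.32, SE, limma adjusted p = 0.559). Its margin between Ischemic 3 and Normal 3 was again small.

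Ndufb11, also X-linked, and Ndufb3 are further membrane-arm subunits, given here because their groups were apart. Ndufb11 was nearly constant among Ischemic arrays, at 10.26, 10.16, 10.30, 10.19 and 10.26, and was at 11.34, 10.57 and 10.50 in Normal arrays. Ndufb3 was at 9.94, 9.86, 10.31, 10.00 and 10.14 in Ischemic arrays and 10.88, 10.62 and 10.33 in Normal arrays. The differences of -0.57 ± 0.24 and -0.56 ± 0.22 (SE) had limma adjusted p of 0.677 and 0.607, with the groups apart in both genes.

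At the other end, Ndufc2, whose protein pairs with Ndufc1 in the membrane arm, differed by -0.18 ± 0.34 (SE, limma adjusted p = 0.967). It was at 9.12, 9.37, 9.93, 9.39 and 9.72 in Ischemic arrays and 10.41, 8.995 and 9.66 in Normal arrays, and Normal 2 was the lowest of all 8.

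Among the other Ndufa genes, Ndufa2 and Ndufa6 of the matrix arm differed by -0.44 and -0.38, and Ndufa9, which lies at the ubiquinone site, by -0.47. Ndufa3, Ndufa8 and Ndufa13 of the membrane arm differed by -0.42, -0.54 and -0.47, and Ndufa13 is also known as the cell death regulator GRIM-19. Ndufab1, the mitochondrial acyl carrier protein, differed by -0.79, with 7.19 ± 0.91 in Ischemic and 7.98 ± 0.60 in Normal arrays (SD, n = 5 and 3). Limma adjusted p of these 7 genes lay between 0.832 and 0.927.

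Among the other Ndufb genes, which build the far end of the membrane arm, Ndufb6 differed most, by -1.19, with 7.89 ± 1.05 in Ischemic and 9.08 ± 0.36 in Normal arrays (SD, n = 5 and 3). Its Ischemic arrays were widely spread. Ndufb5, Ndufb7, Ndufb8 and Ndufb10 differed by -0.57, -0.36, -0.53 and -0.70. Ndufb7 was at 12.06 ± 0.23 in Ischemic and 12.42 ± 0.17 in Normal arrays. The dim genes Ndufb1 and Ndufb4 differed by -0.17 and -0.14.

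Ndufa7 did not share the direction of the others. It was at 9.86, 7.49, 7.46, 6.60 and 7.42 in Ischemic arrays and 6.82, 8.70 and 7.53 in Normal arrays, a difference of 0.08 ± 0.72 (SE, limma adjusted p = 0.992). Ischemic 1 was far above the other arrays and Normal 1 was the lowest Normal array, the reverse of their order in most other members. The probe sets of the gene disagreed on Ischemic 1: it was at 9.86 and 8.03 on 2 of them, at 6.45 and 6.65 on another 2 and at 4.53 on the fifth, the lowest of that set's 8 arrays. The 4 other probe sets differed by -0.84 to -0.19. Without the 3 arrays high in Xist the difference was -0.96, and with these 3 alone it was 1.86; with each array centred on its median it was -0.098.

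**Figure D3:**
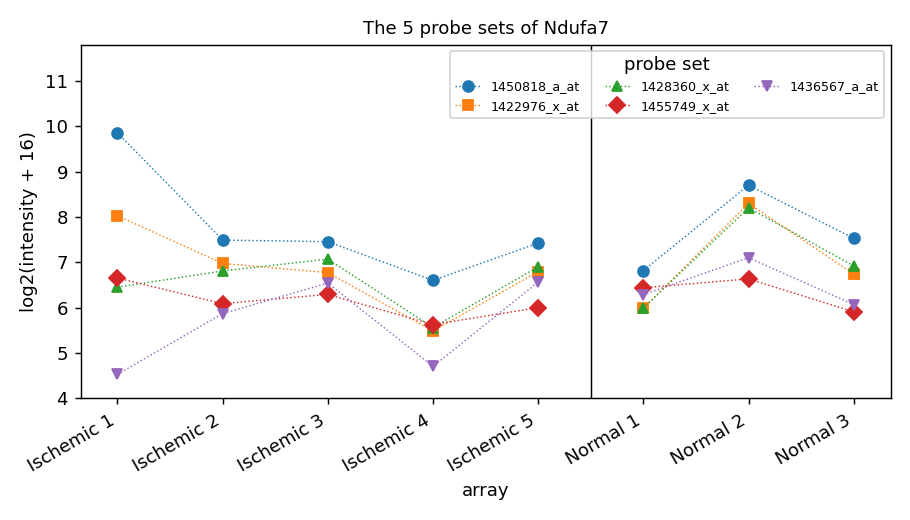
Level of the 5 Ndufa7 probe sets on each array in log2(intensity + 16), Ischemic arrays left of Normal arrays. The set used for the gene has its highest value, 9.86, on Ischemic 1, where another set of the same gene is at 4.53.

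In 6 further genes the probe set used and a dimmer one differed in sign. For Ndufa10, a subunit related to nucleoside kinases, the set used was at 8.61, 8.45, 9.81, 8.39 and 9.28 in Ischemic arrays and 10.58, 10.30 and 9.32 in Normal arrays (-1.15 ± 0.42, SE, limma adjusted p = 0.561), while the dimmer set differed by 0.45. Ndufa12, a late-added matrix subunit, was at 8.80, 9.51, 10.07, 9.40 and 9.86 in Ischemic arrays and 10.69, 9.67 and 9.77 in Normal arrays on the set used (-0.52), and its dimmest set differed by 0.19. Ndufb2 was at 7.19, 7.72, 7.85, 7.66 and 7.59 in Ischemic arrays and 9.11, 8.08 and 7.86 in Normal arrays on the set used, a difference of -0.74 ± 0.32 (SE, limma adjusted p = 0.684). Its groups did not overlap, but Ischemic 3 and Normal 3 were nearly level. Dimmer sets differed by 0.32 for Ndufb2, 0.60 for Ndufb9, 0.22 and 0.28 for Ndufs4, and 0.15 for Ndufaf8. On one such set each of Ndufb2, Ndufb9, Ndufs4 and Ndufaf8, Ischemic 1 was the highest array, at 7.83, 7.95, 7.70 and 8.43, while the other 7 arrays were at 6.69 or below.

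The assembly factors were dimmer and less even. Their mean over 8 Ndufaf genes was 6.37, 6.54, 7.24, 6.60 and 7.03 in Ischemic arrays and 7.60, 6.94 and 6.92 in Normal arrays, or 6.76 ± 0.36 in Ischemic and 7.15 ± 0.39 in Normal arrays (SD, n = 5 and 3), and the groups overlapped. Of the 8, 7 were lower with a median of -0.41. Ndufaf7, a methyltransferase needed for assembly, was at 5.31, 5.18, 6.51, 5.93 and 6.45 in Ischemic arrays and 6.87, 7.73 and 6.57 in Normal arrays. Its groups did not overlap, and the difference was -1.18 ± 0.41 (SE, limma adjusted p = 0.517). Ndufaf4, which acts early in assembly, was at 8.98, 8.61, 8.94, 8.27 and 8.47 in Ischemic arrays and 10.03, 9.45 and 8.94 in Normal arrays (-0.82 ± 0.30, SE, limma adjusted p = 0.553). Ischemic 1 and 3 overlapped Normal 3. Ndufaf8, a partner of the factor Ndufaf5, was at 8.37, 8.89, 9.02, 7.995 and 8.50 in Ischemic arrays and 9.79, 8.81 and 8.61 in Normal arrays. Its groups overlapped (-0.51 ± 0.35, SE, limma adjusted p = 0.900). Ndufaf1, Ndufaf2, Ndufaf3 and Ndufaf5 differed by -0.05, -0.57, -0.20 and -0.30. Ndufaf6 was the member furthest in the higher direction, by 0.47 (limma adjusted p = 0.917), and with Ndufaf1, Ndufaf3, Ndufb1 and Ndufb4 it was among the 5 members below the median level of all genes. Over those 5 dim genes the median difference was -0.14, and over the 39 brighter ones -0.59.

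Ndufa4 and Ndufa4l2 carry the family name but differ in place: the Ndufa4 protein is now assigned to complex IV, and Ndufa4l2 is its hypoxia-induced relative. Ndufa4 differed by -0.43. Ndufa4l2 was at 7.19, 5.77, 5.67, 6.33 and 5.88 in Ischemic arrays and 6.12, 5.94 and 5.62 in Normal arrays, with overlapping groups and a difference of 0.28 ± 0.37 (SE, limma adjusted p = 0.954). Only Ischemic 1 stood clear of the others.

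The 250 bases before the transcription start of these genes were searched for 4 short motifs, on both strands. Any relation of the motifs to the differences was not tested. RefSeq (GRCm38.p6) gave a start for 39 of the 44 genes. The sequence of the nuclear respiratory factor NRF1 (GCGCA, any base, GCGC) was in 5 of the 39 (12.8%): Ndufa5, Ndufa8, Ndufaf4, Ndufb4 and Ndufs5. It was in 4.23% of the promoters of all 27025 genes in that table and in 5.84% of those of 17491 protein-coding genes. The ETS-type sequence CCGGAAG, of the kind bound by the nuclear respiratory factor GABP, was in 5 of the 39 (12.8%): Ndufaf1, Ndufaf8, Ndufb6, Ndufb7 and Ndufs3. It was in 7.83% of the promoters of all genes and 10.2% of those of protein-coding genes. The YY1 sequence AAGATGGCG was in 0 of the 39 and in 0.71% of all promoters, and the ERR sequence TCAAGGTCA in 0 and in 0.42%. A match describes letters in these windows and nothing about binding, and the motifs do not overlap each other in letters. The promoters of 3 members whose values are given above are shown 5′ to 3′ on the strand of the gene, ending at the base before the start, with the motif in capitals. That of Ndufa5 (chr6:24527691-24527940, minus strand) has the NRF1 sequence from 26 bases before the start. Another start is listed for Ndufa5, and the same site begins 190 bases before that one. The promoter of Ndufaf4 (chr4:24897833-24898082, plus strand) has the NRF1 sequence from 113 bases before the start. The promoter of Ndufs3 (chr2:90904722-90904971, minus strand) has the ETS sequence from 27 bases before the start.
Ndufa5: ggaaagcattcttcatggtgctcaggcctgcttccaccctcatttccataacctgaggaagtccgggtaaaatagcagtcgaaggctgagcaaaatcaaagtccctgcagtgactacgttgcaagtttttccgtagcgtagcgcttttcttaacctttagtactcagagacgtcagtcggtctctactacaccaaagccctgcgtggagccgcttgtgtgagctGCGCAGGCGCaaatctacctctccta
Ndufaf4: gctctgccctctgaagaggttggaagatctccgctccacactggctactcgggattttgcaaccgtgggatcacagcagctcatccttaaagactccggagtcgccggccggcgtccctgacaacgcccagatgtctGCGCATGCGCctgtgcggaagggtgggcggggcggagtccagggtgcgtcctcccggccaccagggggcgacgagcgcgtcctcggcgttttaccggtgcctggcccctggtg
Ndufs3: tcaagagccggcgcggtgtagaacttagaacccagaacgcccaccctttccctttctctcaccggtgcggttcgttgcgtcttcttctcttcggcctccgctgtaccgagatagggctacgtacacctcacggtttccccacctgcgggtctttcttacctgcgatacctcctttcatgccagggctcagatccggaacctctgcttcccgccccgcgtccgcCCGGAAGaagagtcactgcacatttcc

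Single arrays carried much of the difference. The mean over all 44 genes was 8.23, 8.55, 8.96, 8.54 and 8.76 in Ischemic arrays 1 to 5, against 9.64, 9.01 and 8.87 in Normal arrays 1 to 3, or 8.61 ± 0.27 in Ischemic and 9.18 ± 0.41 in Normal arrays (SD, n = 5 and 3). Ischemic 3 lay above Normal 3, so the groups overlapped in this mean. Normal 1 was the highest of the 8 arrays in 35 of the 44 genes, while it was the highest in 16.1% of all genes. Ischemic 1 was the lowest of the 8 in 24 of the 44, against 23.5% of all genes. Without Normal 1 the median difference of the 44 genes was -0.29, with 37 lower, against 44.7% of all genes lower. The same omission gave medians of -0.27 over accessory Ndufa, Ndufb and Ndufc genes, -0.51 over Ndufs and Ndufv genes and -0.09 over assembly factors. Over the core subunits measured it gave -0.43 and over supernumerary subunits -0.32. At an unadjusted limma p below 0.05, 2 members were lower without Normal 1, 7 without Ischemic 4 and 8 without Normal 2, against 13 with all arrays. With all arrays 5.02% of all genes were lower at that threshold. The shares of all genes under these omissions are not given here. Without Ischemic 1, the median of the 44 was -0.45 with 39 lower, and the median over assembly factors was -0.17.

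**Figure D4:**
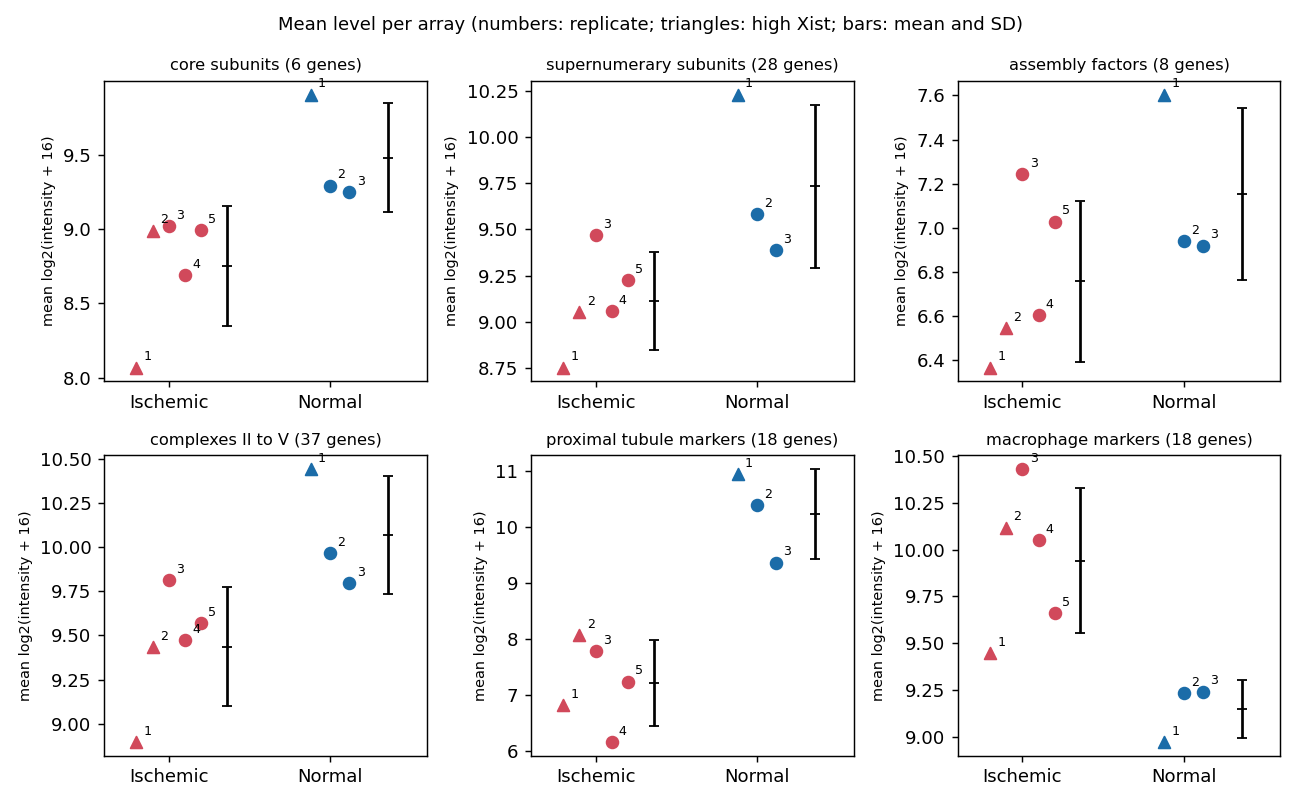
Mean level on each array over the core, supernumerary and assembly factor genes of complex I, over complexes II to V and over proximal tubule and macrophage markers, in log2(intensity + 16), with Ischemic arrays left of Normal arrays and bars at the group mean with its SD. Core means were 8.07 to 9.02 in Ischemic and 9.25 to 9.90 in Normal arrays, and Ischemic 1 was the lowest and Normal 1 the highest array in the core, supernumerary, assembly factor and complex II to V panels. Triangles mark arrays high in Xist.

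The 3 arrays high in Xist, Ischemic 1, Ischemic 2 and Normal 1, gave other medians than the remaining 5; whether the 2 sets of arrays differ was not tested. With these 3 arrays alone, Ischemic minus Normal had a median of -1.37 over the 44 genes and 41 were lower, against 45.7% of all genes; these values rest on 1 Normal array. With the other 5 arrays, 3 Ischemic and 2 Normal, the median was -0.16 and 32 of the 44 were lower, against 49% of all genes. The Ndufs and Ndufv genes had medians of -1.41 in the first comparison and -0.37 in the second, the accessory Ndufa, Ndufb and Ndufc genes -1.34 and -0.17, and the assembly factors -1.33 and 0.15. Every Ischemic array was below every Normal array for 41 of the 44 genes among the 3 arrays high in Xist (32.9% of all genes) and for 12 among the other 5 (10.3% of all genes). These 12 were Ndufa1, Ndufa2, Ndufa5, Ndufa7, Ndufaf7, Ndufb2, Ndufb3, Ndufb7, Ndufb9, Ndufb11, Ndufc1 and Ndufv1. The matrix arm had medians of -1.41 and -0.26 and the membrane arm -1.33 and -0.25, with 11 of 14 and 15 of 19 genes lower among the other 5 arrays. Marker lists also differed between the 2 sets of arrays. Proximal tubule markers had a median difference of -3.71 among the 3 arrays high in Xist and -3.06 among the other 5, and distal nephron markers -1.74 and -1.87. For B cell markers the medians were 1.38 and -0.05, for endothelial markers -1.63 and -0.56, for T and NK cell markers -0.03 and 0.01, for macrophage markers 0.85 and 0.59, and for fibroblast markers 0.54 and 0.16. Their part in the complex I values was not tested. With the Xist class as a block in the fit, the median over the 44 genes was -0.57. That fit gives each gene a common difference for both sets of arrays, so it cannot show whether the difference held in each set.

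Gene by gene, the 5 arrays low in Xist gave smaller differences for most members. Among core subunits, Ndufv1 kept most of its difference, at -0.78, while Ndufv2 was at -0.16. Ndufs1 and Ndufs7 were both at -0.37, Ndufs8 at -0.38 and Ndufs3 at -0.15. Of the supernumerary genes with those names, Ndufs5 was at -0.90, Ndufv3 at -0.55 and Ndufs4 at -0.11. These were all still below 0, as were all 9 Ndufs and Ndufv genes. The brighter set listed with both Ndufs5 and Ndufs5-ps had overlapping groups on the same arrays. It was at 9.43, 8.52 and 9.25 in Ischemic 3, 4 and 5 and at 9.34 and 9.36 in Normal 2 and 3.

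Among the other supernumerary subunits, the genes of the same 5 arrays ran from well below 0 to above it. Ndufa5 was at -0.74, Ndufa10 at -0.65, Ndufa1 at -0.37 and Ndufab1 at -0.10. Ndufa2, Ndufa3, Ndufa8 and Ndufa13 were at -0.15, -0.17, -0.12 and -0.10, while Ndufa6, Ndufa9 and Ndufa12 were above 0, at 0.12, 0.06 and 0.05. The membrane-arm genes were as uneven. Ndufb6 was at -0.64, Ndufc1 at -0.51, Ndufb3 at -0.32, Ndufb9 at -0.32, Ndufb11 at -0.29, Ndufb2 at -0.27, Ndufb5 at -0.25, Ndufb7 at -0.21 and Ndufb8 at -0.13. Ndufb10, Ndufb1, Ndufc2 and Ndufb4 were above 0, at 0.03, 0.04, 0.35 and 0.70.

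The assembly factors divided evenly. Ndufaf7, Ndufaf4, Ndufaf8 and Ndufaf2 were below 0, at -0.85, -0.63, -0.20 and -0.09, and Ndufaf6, Ndufaf1, Ndufaf3 and Ndufaf5 above it, at 0.40, 0.53, 0.55 and 0.55. Ndufa4 and Ndufa4l2 were at -0.07 and 0.18.

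**Figure D5:**
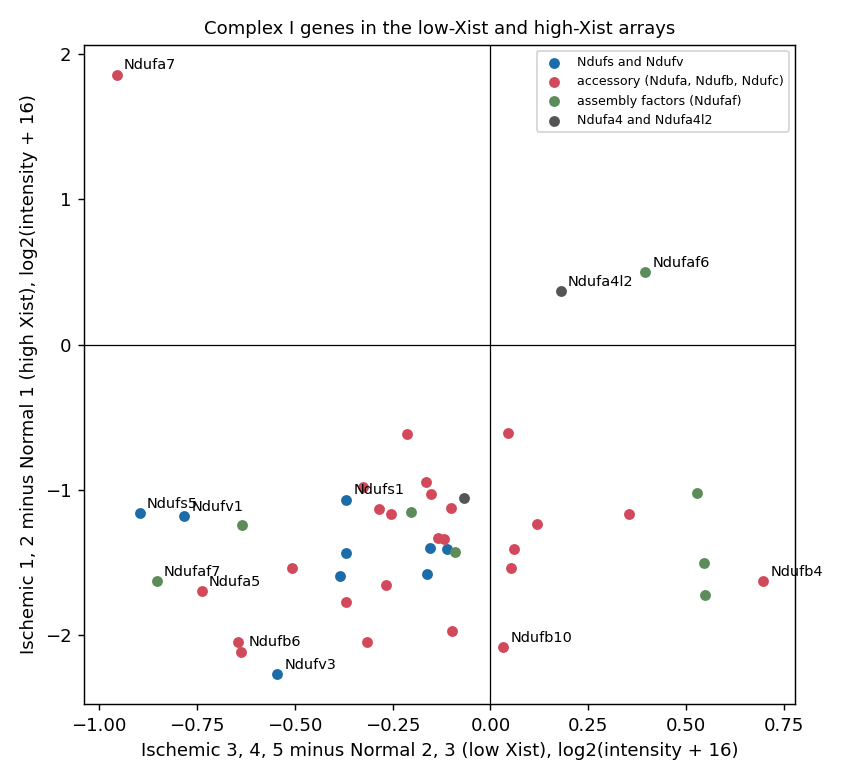
Difference of each complex I gene, Ischemic minus Normal, among the 3 arrays high in Xist (vertical) and among the 5 other arrays (horizontal), in log2(intensity + 16), coloured by class. On the vertical axis 41 genes lie below 0 with a median of -1.37, and on the horizontal axis 32 with a median of -0.16.

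Other genes of the enzyme and of its neighbours were mostly lower as well. One complex I subunit of the mitochondrial genome was measured, ND5, a proton pump of the membrane arm. It was at 12.75, 12.62, 11.84, 12.48 and 12.18 in Ischemic arrays and 12.92, 12.80 and 12.78 in Normal arrays, with the groups apart and a difference of -0.46 ± 0.25 (SE, limma adjusted p = 0.830). Of 8 measured assembly factors without an Nduf name, 6 were lower with a median of -0.60, and 0 passed the adjusted threshold. Among them, Ecsit and Acad9, which work together in building the membrane arm, differed by -0.91 and -0.60, Tmem126b by -1.26, and Foxred1 and Tmem186 by 0.32 and 0.11. Of 37 genes of respiratory complexes II to V, 36 were lower with a median of -0.65. Their median was -1.20 among the 3 arrays high in Xist, and -0.25 with 31 of 37 lower among the other 5. The mean of these 37 was 8.90, 9.43, 9.81, 9.47 and 9.57 in Ischemic arrays and 10.44, 9.97 and 9.80 in Normal arrays, with Normal 1 again highest and Ischemic 1 lowest. By complex, all 4 genes of complex II, 9 of complex III and 9 of complex IV were lower, as were 14 of 15 of complex V.

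Of 8 regulators of mitochondrial genes, 4 were lower and 0 passed the adjusted threshold. Ppargc1a, the coactivator PGC-1alpha that drives mitochondrial biogenesis, was at 4.85, 5.54, 6.34, 5.01 and 6.44 in Ischemic arrays and 9.33, 9.12 and 8.18 in Normal arrays. The groups were far apart, at -3.24 ± 0.46 (SE, limma adjusted p = 0.122). Its relative Pprc1 differed by 1.35 ± 0.30 (SE, limma adjusted p = 0.183). Ppargc1b, Nrf1, Gabpa, Tfam, Esrra and Yy1 lay between -0.30 and 0.30. The mean of the proximal tubule markers was 6.82, 8.06, 7.78, 6.15 and 7.24 in Ischemic arrays and 10.94, 10.39 and 9.36 in Normal arrays. Normal 1 was the highest Normal array in this mean and in that of the 44 genes. The order of the Ischemic arrays differed. The marker mean was lowest on Ischemic 4 and highest on Ischemic 2, and that of the 44 genes lowest on Ischemic 1 and highest on Ischemic 3. The relation of these means was not tested.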

How the data were processed

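RNA of FSP1-GFP-positive cells sorted from kidneys was measured on 8 Affymetrix mouse arrays, 5 Ischemic and 3 Normal, grouped by title. The deposited table gives the authors' intensity per probe set on a linear scale; how the authors summarized and scaled it is not given in the sources used here. Array medians of these intensities were 24.2 to 33.4. For arrays, their number limits the precision. Of 45101 probe sets, 64 control sets were left out, 34945 have 1 gene symbol in the platform annotation, 932 have several and 9160 are not listed with a symbol.

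From the intensities, log2(value + 16) was taken and quantile normalized, and a gene with several probe sets was taken at the brightest. Genes named array by array were chosen by a rule: the core subunits, the 6 other members with the smallest p, the 3 brighter members nearest 0 and the members whose probe sets differ in sign. Ndufb3 and Ndufb11 fall outside it and were chosen after their values were seen. Differences were tested with limma 3.58.1 in R 4.3.3 (lmFit and eBayes) over all 18193 genes, with Benjamini-Hochberg adjustment, and single genes with a two-sided exact permutation test in scipy 1.17.1. Confidence intervals are at the 95% level. On simulated data with 200 changed genes in each of 20 draws over 18193 genes, limma called 2.31% of genes changed 2-fold, 46.0% of those changed 4-fold and 79.5% of those changed 8-fold, and 4.02% of its calls were false. The simulated noise was normal, independent between genes and equally spread on all 8 arrays, and only genes at or above the median level were changed. These arrays differ from that setting, with Ischemic 1 apart and some arrays high in Xist, so the rates may not hold for them.

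The labels do not say that a replicate number links an Ischemic to a Normal array, so the main fit has no block. The deviations of same-numbered arrays from their group means correlated at 0.16, -0.09 and 0.10. Those of differently numbered arrays correlated at -0.28 to 0.31. So few values cannot exclude a link. Alternatives changed the scaling, the pseudocount, the choice of probe set, the filter, the variance model and the arrays used. The members and lists were chosen with earlier results of these data known. The arrays may share litters or days that the labels do not record.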

Additional observations from a re-analysis of the deposited data

Results flagged for a closer look

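For each of the 44 genes, the 5 Ischemic arrays were searched for a single array far from the others, taken as a gap to the nearest array of more than 0.71 of the group's range. Chance alone gives such an array in about 1 of 20 groups, and 2 of the 44 genes had one. Ndufa7 was at 9.86 in Ischemic 1, while the other Ischemic arrays were at 6.60 to 7.49, and the gap was 0.727 of the range. Ndufaf2, a factor that acts late in the assembly of the matrix arm, was at 7.42 in Ischemic 1, while the other Ischemic arrays were at 8.51 to 8.74, and the gap was 0.823 of the range. Both rest on Ischemic 1, the array with the lowest correlation with the others.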

How the results depend on the processing

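No complex I gene passed the adjusted limma threshold under any of the 22 alternatives it was run in, and 33 of the 44 kept their sign in each of those; the alternative with genes at or above the median level holds only 39 of the 44. Centring the arrays on ribosomal protein genes put the median over all genes at -0.13 rather than 0.04; the medians were -0.93 over the 44 members, -1.12 over Ndufs and Ndufv genes and -0.92 over accessory genes, 198 genes passed the adjusted threshold and 31 members had an unadjusted p below 0.05. Of calls at the unadjusted threshold over all genes, 913 were lower and 384 higher, against 1011 and 234 with median centring and 1598 and 127 with ribosomal centring. Genes past the adjusted threshold numbered 1 with a pseudocount of 1 (4 members unadjusted) and 2 with the mean of probe sets. They numbered 12 among genes at or above the median level, 31 with an intensity trend, 5 with array weights (4 members unadjusted) and 1 with the Xist class as a block. At the unadjusted threshold, 854 of all genes were lower with a pseudocount of 1 and 698 with array weights. Under array weights the median over the 44 members was -0.31 and 37 were lower, as were 8734 of all 18193 genes. Over assembly factors the median was then -0.05, with 4 of 8 lower. Without the arrays high in Xist the medians were -0.16 over members, -0.17 over accessory genes and 0.15 over assembly factors, with 2 members unadjusted; with those arrays alone they were -1.37, -1.34 and -1.33, and -1.41 over Ndufs and Ndufv genes, with 7 members unadjusted, a count that rests on 1 Normal array and shows nothing by itself. At the unadjusted threshold, 596 of all 18193 genes were lower without the arrays high in Xist, against 2 of the 44 members. With the replicate number as a block over replicates 1 to 3, the median was -0.59. At an unadjusted limma p below 0.05, 2 members were lower, against 6 in the same arrays without the block. Of all 18193 genes, 962 were lower at that threshold with the block and 997 without it. Leaving out each array in turn gave 0 to 113 genes past the adjusted threshold (113 without Normal 3). Of the members, 37 to 41 were lower, 0 passed the threshold and 2 to 15 were lower unadjusted (2 without Normal 1, 15 without Ischemic 3). The unadjusted counts over all genes under each omission are not given here. Medians were -0.72 to -0.29 over members and -0.83 to -0.51 over Ndufs and Ndufv genes. They were -0.70 to -0.27 over accessory and -0.58 to -0.09 over assembly genes.

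Ndufa7 turned negative with median centring (-0.098), ribosomal centring (-0.25), the mean of probe sets (-0.33), array weights (-0.29) and without the arrays high in Xist (-0.96), and ranged from -0.44 to 0.59 when single arrays were left out. With array weights, Ndufaf1 was at 0.31, Ndufaf3 at 0.25, Ndufaf5 at 0.12, Ndufb4 at 0.069 and Ndufc2 at 0.059. Without the arrays high in Xist, Ndufa12 was at 0.052, Ndufa6 at 0.12, Ndufa9 at 0.061, Ndufaf1 at 0.53, Ndufaf3 at 0.55, Ndufaf5 at 0.55, Ndufb1 at 0.044, Ndufb10 at 0.032, Ndufb4 at 0.70 and Ndufc2 at 0.35. Leaving out single arrays gave -0.33 to 0.18 for Ndufaf1, -0.52 to 0.14 for Ndufaf3, -0.57 to 0.021 for Ndufaf5, -0.46 to 0.080 for Ndufb1, -0.48 to 0.32 for Ndufb4 and -0.53 to 0.18 for Ndufc2. The cause of these shifts was not tested.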

Other observations

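Probe sets listed with several symbols were not counted as members. The set shared by Ndufs6, a subunit that carries a zinc site, and its copy Ndufs6b was at 8.91, 9.80, 9.84, 9.33 and 9.44 in Ischemic arrays and 10.89, 9.87 and 9.57 in Normal arrays, a difference of -0.65 with overlapping groups. The 2 sets shared by Ndufb4, Ndufb4b and Ndufb4c differed by -1.85 and -0.93, while the dim set listed under Ndufb4 alone differed by -0.14. On both shared sets all Ischemic arrays were below all Normal arrays, at 5.68 to 8.72 in Ischemic and 9.004 to 9.95 in Normal arrays on the first and at 7.19 to 8.24 in Ischemic and 8.35 to 9.60 in Normal arrays on the second. The brighter set shared by Ndufa11 and Ndufa11b differed by -0.54 and the dimmer by 0.21.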
